A study of Homo sapiens with 6 samples.

Results

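The let-7 family was examined in small extracellular vesicles (EVs) released by tumour spheroids. Its members were taken by name from the deposited table of miRNA read counts, as the mature 5p let-7 miRNAs and miR-98-5p, which gave 9 of the 471 names in the table. The vesicles came from the medium of Cal27 spheroids, collected on day 14, and Cal27 is an established human line from an oral squamous carcinoma. EVsoft denotes vesicles from spheroids in Matrigel at 3 mg/mL and EVstiff those from spheroids in Matrigel at 12 mg/mL, with 3 small RNA libraries in each group. All 6 libraries came from 1 unmodified cell line with no added agent, and the paper describes replicates as independent isolations from separate cultures. Stiffness was set by the amount of Matrigel, so the gel's stiffness and its concentration cannot be told apart. The medium contained serum that had been depleted of vesicles. Mature let-7 sequences are shared among mammals, so human reads and reads from the bovine serum or the mouse matrix cannot be told apart here.

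MiRNAs are short RNAs that guide silencing complexes to messenger RNAs, mostly through their seed, the bases near the 5′ end that pair with the target. The let-7 family is among the most conserved of them, is high in differentiated tissue, and is known as a brake on growth genes such as RAS, MYC and HMGA2. LIN28 proteins block the processing of many let-7 precursors, and loss of let-7 is common in carcinomas.

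All 9 members were found in the RefSeq miRNA table on GRCh38.p14, and each has 22 bases. The mature sequences are shown because they set both what the members share and how far reads of one can be mistaken for another. Capitals mark the seed, bases 2 to 8 counted from the 5′ end, and the prefix hsa (human) is left out of the names after this list.
hsa-let-7a-5p: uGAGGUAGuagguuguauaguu
hsa-let-7b-5p: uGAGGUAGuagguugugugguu
hsa-let-7c-5p: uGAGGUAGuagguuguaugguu
hsa-let-7d-5p: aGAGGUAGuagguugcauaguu
hsa-let-7e-5p: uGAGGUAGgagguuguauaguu
hsa-let-7f-5p: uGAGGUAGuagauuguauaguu
hsa-let-7g-5p: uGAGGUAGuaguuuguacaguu
hsa-let-7i-5p: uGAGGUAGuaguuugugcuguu
hsa-miR-98-5p: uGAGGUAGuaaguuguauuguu
The seed is the same in all 9, so they read the same target letters, CUACCUC, in a messenger RNA. Of 2370 mature names in RefSeq, 11 carry this seed. The 2 that are not members, miR-4458 and miR-4500, had no row in the count table.

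Outside the seed the members differ at a few positions. Relative to let-7a-5p, and counting from 1 at the 5′ end, let-7c-5p carries A19G, let-7e-5p carries U9G and let-7f-5p carries G12A, each as the only difference. Relative to let-7b-5p, let-7c-5p carries G17A alone. Reads of let-7a, let-7b, let-7c, let-7e and let-7f can therefore be exchanged by a single base error, and their separate values are less certain than those of let-7d, let-7g, let-7i and miR-98, which are at least 2 bases from any other member. The most distant is let-7i-5p, with G12U, A17G, U18C and A19U relative to let-7a-5p, and its nearest member is let-7g-5p.

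The 9 mature members arise from 12 hairpins. Those of let-7a-1, let-7f-1 and let-7d lie in a row on the plus strand of chromosome 9 between chr9:94175957-94176036 and chr9:94178834-94178920, in exons of the lncRNA MIRLET7A1HG. The hairpins of let-7a-3 (chr22:46112749-46112822) and let-7b (chr22:46113686-46113768) are 863 bases apart in exons of MIRLET7BHG. On the X chromosome, miR-98 (chrX:53556223-53556341) and let-7f-2 (chrX:53557192-53557274) are 850 bases apart in introns of HUWE1, a ubiquitin ligase gene. Other clusters join a let-7 hairpin to the miR-99/100 and miR-125 families. The hairpin of let-7e (chr19:51692786-51692864) lies 104 bases from miR-99b and 389 bases from miR-125a, in an intron of SPACA6. The hairpin of let-7c (chr21:16539828-16539911) lies 658 bases from miR-99a in MIR99AHG, and that of let-7a-2 (chr11:122146522-122146593) lies 5635 bases from miR-100 in MIR100HG. Both let-7g and let-7i have no partner in the family. The hairpin of let-7g is at chr3:52268278-52268361 in an intron of WDR82, and that of let-7i is at chr12:62603686-62603769 in an intron of the lncRNA MIRLET7IHG and an exon of another lncRNA. Because let-7a-5p and let-7f-5p come from 3 and 2 hairpins, their reads cannot be assigned to a single locus.

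The libraries held between 28688 and 66345 miRNA reads, and every EVsoft library had more than every EVstiff library. Members had between 17 and 8510 reads per library, and counting error alone is 24.3% at the lowest value, for miR-98-5p, against 1.63% at the lowest value of let-7b-5p. PCR copies are not independent molecules, so these errors cover counting only. The squamous markers fixed for the check had a row in 9 of 9 cases. They summed to 6.52 to 7.23% of reads in EVsoft and 5.21 to 5.39% in EVstiff. Of 7 tested, 3 were lower and 0 higher in EVstiff by the test described below for the members. Over all 105 miRNAs tested, 11.4% were lower and 12.4% higher. The 3 were miR-200a-3p, miR-200b-3p and miR-200c-3p. The log2 fold changes, EVstiff over EVsoft, were positive for miR-205-5p (0.20) and miR-203a-3p (1.21). They were negative for miR-429 (-0.76) and miR-31-5p (-0.80), and none of these passed that test. Of the 6 stromal markers, 4 had no row or at most 3 reads in every library, and 0 could be tested. Of the 9 blood and serum markers, 6 had no row or at most 3 reads in every library, and the list summed to 0.326 to 0.61% of reads in EVsoft and 0.656 to 0.927% in EVstiff, nearly all from miR-122-5p and miR-486-5p. Of these 2 tested markers 1, miR-122-5p, was higher in EVstiff, and the red cell marker miR-451a had at most 8 reads. Their part in the results on let-7 was not tested.

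The family as a whole held about the same large part of the miRNA reads in both groups. It made up 26.4%, 28.5% and 24.5% of the miRNA reads in the EVsoft libraries and 24.3%, 27.1% and 28.2% in the EVstiff libraries. The groups overlapped, with means of 26.4% ± 1.98 (SD, n = 3) in EVsoft and 26.5% ± 1.99 (SD, n = 3) in EVstiff. No test was made on this sum. Without let-7b-5p, the miRNA with the most reads in every library, the other members made up 15.4% of the remaining reads in EVsoft and 14.2% in EVstiff. A share of reads does not tell fewer vesicles with a miRNA from less of it in each vesicle.

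**Figure D1:**
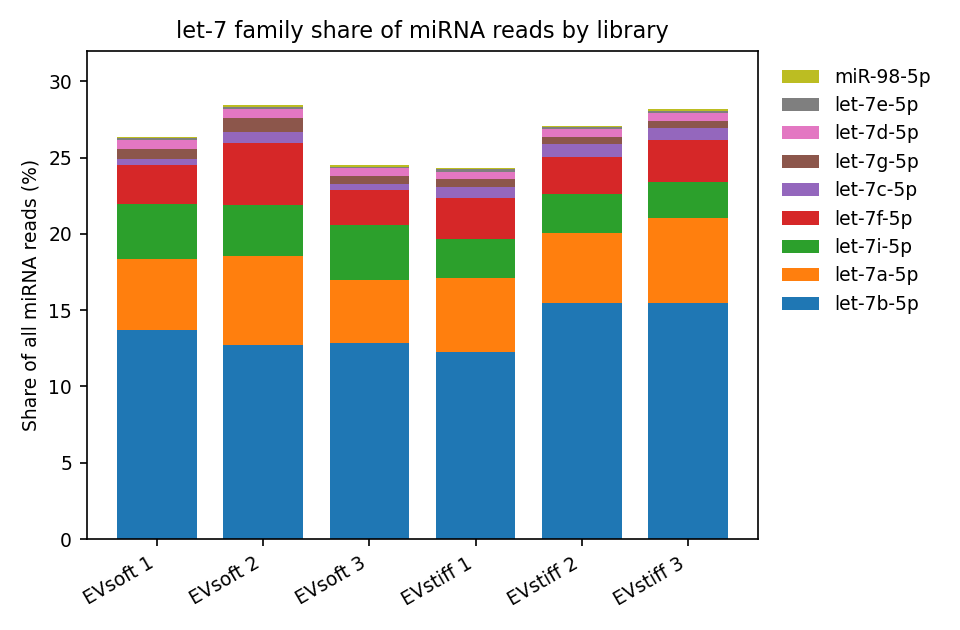
Stacked bars give the percentage of all miRNA reads taken by each let-7 member in each library (y axis, from 0), with the 3 EVsoft libraries at the left and the 3 EVstiff libraries at the right. The total stays between 24.3% and 28.5%, and let-7b-5p is the largest block in every bar.

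Levels within the family were unequal and kept nearly the same order in both groups. As a share of the family's reads, let-7b-5p held 52.0%, 44.8% and 52.4% in EVsoft and 50.3%, 57.0% and 54.8% in EVstiff. Next came let-7a-5p, between 17.0% and 20.3% over the 6 libraries, which was below let-7b-5p in every one. Together with let-7i-5p and let-7f-5p, these made up 92.5% ± 1.06 (SD, n = 3) of the family in EVsoft and 92.4% ± 0.487 (SD, n = 3) in EVstiff. The shares of let-7i-5p and let-7f-5p overlapped in each group, so their order was not resolved. Below them lay let-7c-5p, let-7d-5p and let-7g-5p, at 1.54 to 3.11%, and then let-7e-5p and miR-98-5p, at 0.219 to 0.643%. In EVsoft the shares of let-7c-5p, let-7d-5p and let-7g-5p overlapped, whereas in EVstiff let-7c-5p lay above both others in every library. All members have the same length, so these shares need no correction for length, but ligation and amplification in library preparation can favour some sequences.

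**Figure D2:**
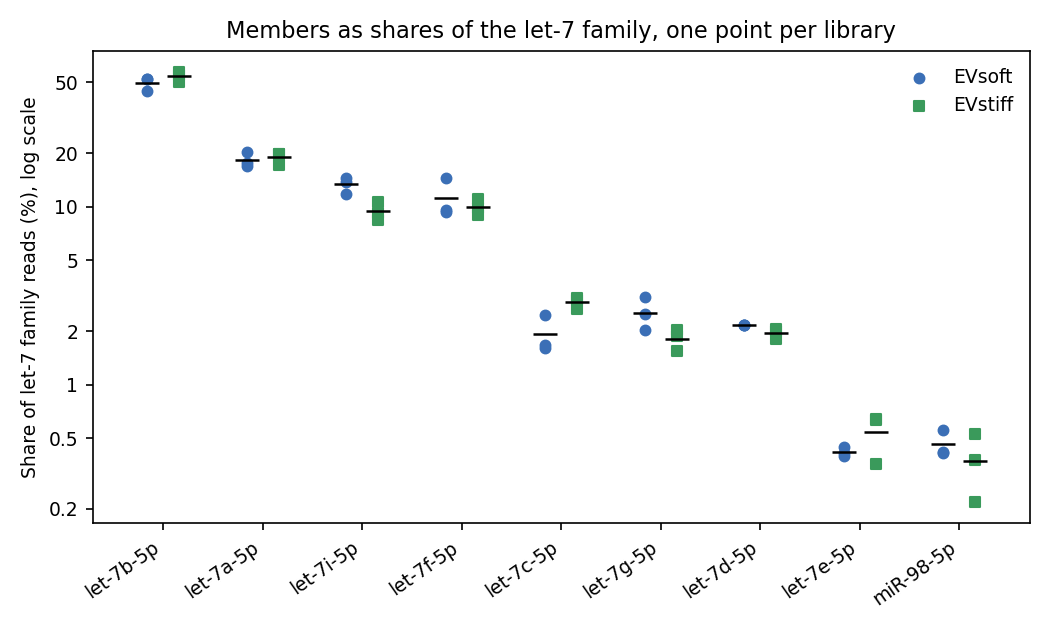
Each point is the share of a member in the summed let-7 reads of 1 library (y axis, percent, log scale), with circles for EVsoft, squares for EVstiff and a bar at each group mean (n = 3). The groups are apart for let-7i-5p and let-7d-5p, lower in EVstiff, and for let-7c-5p, higher in EVstiff, and only let-7c-5p of these stays apart when let-7b-5p is left out of the sum.

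Member by member, 2 of the 9 differed between the groups, in opposite directions. Levels were scaled by TMM, which sets the libraries to a common level of most miRNAs, and tested in edgeR's quasi-likelihood model together with all 105 miRNAs that passed the filter on low counts, with Benjamini-Hochberg adjustment over the 105. All 9 members passed the filter. A member was called at an adjusted p of at most 0.05. Of all miRNAs tested, 23.8% were called, 12.4% higher and 11.4% lower in EVstiff. The 2 of 9 members (22.2%) are close to that background, so the count itself is not a result about the family. The median log2 fold change, EVstiff over EVsoft, was -0.06 over the members and -0.04 over the 105 miRNAs. Of the members 4 had a positive and 5 a negative value. TMM-scaled levels did not overlap between the groups for 2 members, against 47.6% of the 105 miRNAs.

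The member that fell was let-7i-5p, which has a gene of its own and is produced from the following hairpin, with both arms in capitals.
let-7i hairpin: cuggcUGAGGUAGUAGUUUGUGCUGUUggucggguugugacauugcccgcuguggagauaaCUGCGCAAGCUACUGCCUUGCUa
It had 1669, 1311 and 2369 reads in EVsoft and 792, 720 and 708 in EVstiff. After TMM its level was 36673, 32320 and 35365 CPM (read counts relative to the scaled library size) in EVsoft and 26380, 25878 and 25523 CPM in EVstiff. All EVstiff libraries lay below all EVsoft libraries and close to each other. The means were 34786 ± 2234 CPM and 25927 ± 430.5 CPM (SD, n = 3), a log2 fold change of -0.42 (SE 0.09, 95% interval -0.62 to -0.23, edgeR adjusted p = 0.00695). This is under the absolute log2 fold change of 0.58 that the study's volcano plot used as a limit. The value ranged from -0.48 to -0.39 in the 6 fits that each left out 1 library, and it was not called without EVstiff replicate 2 (log2 fold change -0.41, adjusted p = 0.0576).

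The member that rose was let-7c-5p, whose hairpin in MIR99AHG is shown with both arms in capitals.
let-7c hairpin: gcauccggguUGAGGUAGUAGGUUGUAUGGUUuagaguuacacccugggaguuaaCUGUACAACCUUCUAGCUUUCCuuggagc
Its reads numbered 195, 274 and 272 in EVsoft and 224, 238 and 224 in EVstiff, so raw reads overlapped between groups while the library totals differed. After TMM it stood at 4285, 6755 and 4060 CPM in EVsoft and at 7461, 8554 and 8075 CPM in EVstiff. The groups did not overlap, and EVsoft replicate 2 lay nearest to EVstiff. The means were 5033 ± 1495 CPM and 8030 ± 548 CPM (SD, n = 3), a log2 fold change of 0.68 (SE 0.19, 95% interval 0.26 to 1.10, edgeR adjusted p = 0.0245). It was the only member past the fold limit of 0.58 as well. Of the 105 miRNAs tested, 18.1% passed both limits, so this count is not a result about the family. The call was less stable than that of let-7i-5p. It was lost without EVsoft replicate 3 (log2 fold change 0.54, adjusted p = 0.0996), without EVstiff replicate 1 (0.71, adjusted p = 0.0867) and without EVstiff replicate 3 (0.69, adjusted p = 0.0708), and without EVsoft replicate 2 the log2 fold change was 0.94. It was also lost with library size only (0.60, adjusted p = 0.0555), and its sign turned when all libraries were given the same size (-0.11, adjusted p = 0.735).

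Since let-7c-5p is 1 base from both let-7a-5p and let-7b-5p, its reads were set beside theirs. Per 100 reads of let-7a-5p there were 9.19, 12.1 and 9.82 reads of let-7c-5p in EVsoft and 15.1, 17.9 and 13.5 in EVstiff, with no overlap. Per 100 reads of let-7b-5p there were 3.10, 5.48 and 3.20 in EVsoft and 5.96, 5.37 and 4.88 in EVstiff, which overlapped because of EVsoft replicate 2. Whether reads of let-7a-5p or let-7b-5p were counted as let-7c-5p was not tested. With the 5 members that are linked by single-base differences merged into 1 row, the log2 fold change was 0.17 (SE 0.10, edgeR adjusted p = 0.213). Per library, let-7c-5p gave that row 195 to 274 reads and let-7b-5p at least 3756. The merged value therefore cannot show a change of let-7c-5p alone or an exchange of reads.

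The remaining 7 members did not pass the test. For let-7b-5p the level was 129442 ± 7763 CPM in EVsoft and 149930 ± 21726 CPM in EVstiff (SD, n = 3), a log2 fold change of 0.21 (95% interval -0.04 to 0.47, adjusted p = 0.188). It passed without EVstiff replicate 1 (0.31, adjusted p = 0.0258), the EVstiff library with the lowest let-7b-5p level. For let-7a-5p the log2 fold change was 0.13 (95% interval -0.16 to 0.42), and for let-7d-5p it was -0.06 (95% interval -0.36 to 0.24). The intervals of both span 0 and stay within 0.42 on the log2 scale.

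The value of let-7g-5p was close to that of let-7i-5p, from which it differs by 2 bases, but its error was larger. It had 6592, 8554 and 4896 CPM in EVsoft and 5029, 5247 and 4650 CPM in EVstiff, a log2 fold change of -0.42 (SE 0.19, 95% interval -0.85 to 0.01, edgeR adjusted p = 0.132). EVsoft replicate 3 lay within the range of EVstiff. Without that library let-7g-5p was called (-0.61, adjusted p = 0.0317), and without EVsoft replicate 2 the log2 fold change was -0.20.

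EVsoft replicate 2 also decided the sign for let-7f-5p. Its level there was 39789 CPM, against 25489 and 22631 CPM in the other EVsoft libraries and 25087 to 29633 CPM in EVstiff. The log2 fold change was -0.09 (95% interval -0.50 to 0.32, adjusted p = 0.755) with this library and 0.19 (adjusted p = 0.182) without it. The same library had the lowest share of let-7b-5p within the family and the highest of let-7a-5p and let-7g-5p.

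The rarest members were measured with the widest intervals. For let-7e-5p, with 30 to 72 reads per library, the log2 fold change was 0.45 (95% interval -0.11 to 1.00, adjusted p = 0.201). For miR-98-5p, with 17 to 68 reads, it was -0.21 (95% interval -0.98 to 0.56, adjusted p = 0.681). Both intervals span 0, and how small a change could be detected at these counts was not tested.

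**Figure D3:**
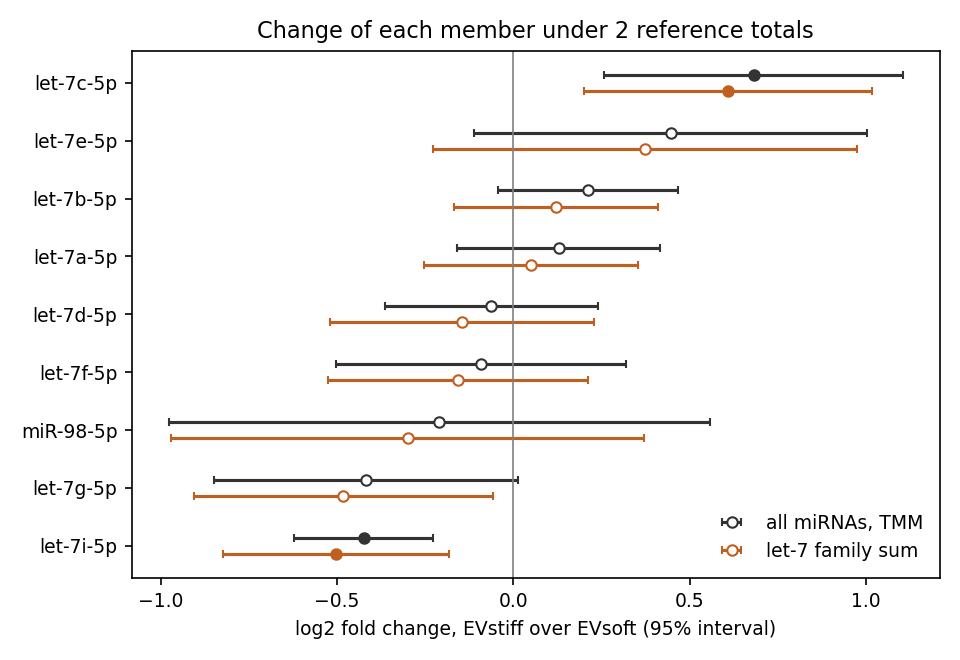
Points give the log2 fold change of each member, EVstiff over EVsoft (x axis), with 95% intervals from edgeR, in black relative to all miRNAs after TMM and in orange relative to the summed let-7 reads. Filled points have an adjusted p of at most 0.05 and are those of let-7c-5p and let-7i-5p on both scales.

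Relative to the family itself, let-7i-5p was also lower and let-7c-5p higher in EVstiff. These are the same reads over another total, so this is not independent support. For let-7i-5p the separation of the groups depended on whether let-7b-5p was part of the sum. The share of let-7i-5p was 13.8%, 11.7% and 14.6% of the family's reads in EVsoft and 10.6%, 9.27% and 8.45% in EVstiff, or 13.4% ± 1.46 against 9.44% ± 1.09 (SD, n = 3). For let-7c-5p it was 1.61%, 2.46% and 1.67% in EVsoft and 3.00%, 3.06% and 2.67% in EVstiff, or 1.91% ± 0.47 against 2.91% ± 0.208. Neither overlapped between groups (p = 0.1 for each by two-sided exact permutation, the smallest that 3 against 3 allow). For let-7d-5p the shares were also apart, at 2.15 to 2.17% in EVsoft and 1.80 to 2.05% in EVstiff (p = 0.1 by exact permutation), and the other 6 members overlapped. With let-7b-5p, the largest single part of the sum, left out of it, the share of let-7i-5p was 28.8%, 21.3% and 30.6% in EVsoft and 21.4%, 21.6% and 18.7% in EVstiff, and the groups overlapped because of EVsoft replicate 2 (p = 0.3 by exact permutation). On that scale let-7d-5p also overlapped (p = 0.8 by exact permutation), at means of 4.31% and 4.25%. In its place let-7a-5p was apart, at 35.8 to 36.8% in EVsoft and 39.9 to 43.9% in EVstiff (p = 0.1 by exact permutation). The share of let-7c-5p stayed apart, at 3.36 to 4.45% in EVsoft and 5.92 to 7.12% in EVstiff (p = 0.1 by exact permutation). Reads per family read, with let-7b-5p in the sum, did not overlap for 41% of the 105 miRNAs, so 3 of 9 is no excess. For the sum without let-7b-5p, the share of all miRNAs that were apart was not computed.

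The count model of the same question used the family sum as library size for all 105 miRNAs and called 18.1% of them, 6.67% higher and 11.4% lower in EVstiff, against 1 member higher and 1 lower. There let-7i-5p had a log2 fold change of -0.50 (SE 0.15, edgeR adjusted p = 0.0274) and let-7c-5p one of 0.61 (SE 0.19, edgeR adjusted p = 0.0376). The value of let-7g-5p was -0.48 (SE 0.20, edgeR adjusted p = 0.0837), which did not pass. The log2 ratio of let-7c-5p to let-7i-5p reads was -3.10, -2.26 and -3.12 in EVsoft and -1.82, -1.60 and -1.66 in EVstiff. This pair was chosen after its values were seen, and the ratio is given without a test.

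Raw reads fell for most of the family along with the library totals. In 7 of the 9 members every EVstiff library had fewer reads than every EVsoft library, the exceptions being let-7c-5p and let-7e-5p, and the same held for 64.8% of all miRNAs tested. When all libraries were treated as equal in size, the median log2 fold change of the 105 miRNAs was -0.89, and 6 members were called lower and none higher, where 54.3% of all miRNAs were called lower. Relative to that median, let-7i-5p lay at -0.38 and let-7c-5p at 0.78.

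**Figure D4:**
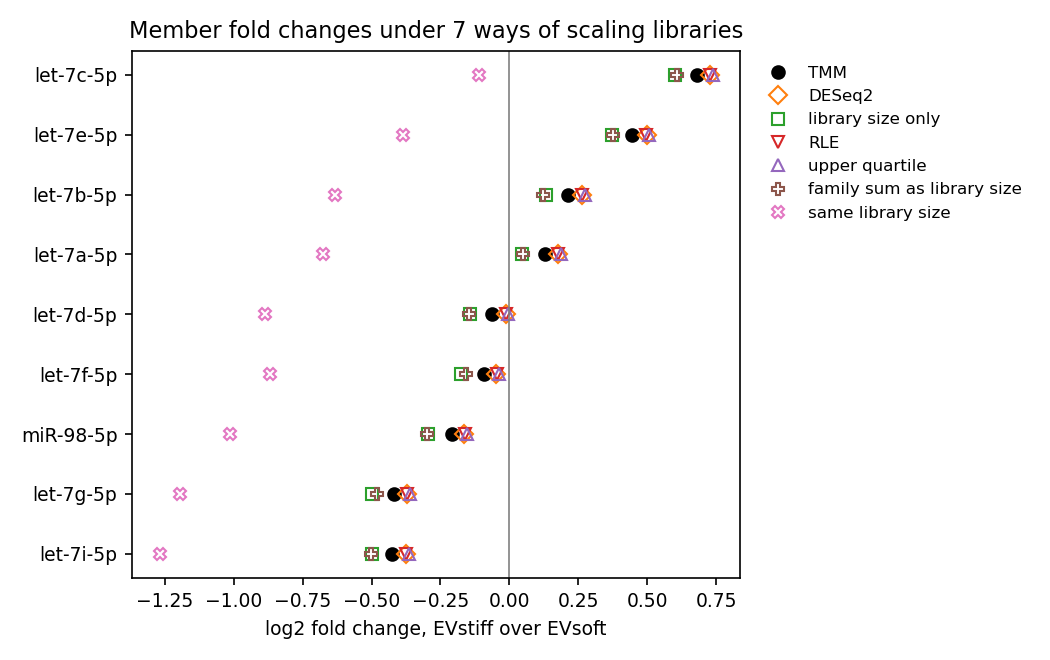
Symbols give the log2 fold change of each member, EVstiff over EVsoft (x axis), under 7 ways of scaling the libraries. The order of the members is nearly the same in all, while the assumption of equal library size (crosses) moves every member to the left, let-7c-5p to -0.11 and let-7i-5p to -1.27.

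Members that share a gene cluster were compared as log2 ratios of reads, 10 pairs in all, with 0.5 added to each count. Neighbours on a shared primary transcript can be made together, although each hairpin is processed and loaded on its own. Reads of let-7a-5p and let-7f-5p come from 3 and 2 hairpins, so ratios with them do not measure 1 cluster alone. On chromosome 9, the log2 ratio of let-7a-5p to let-7d-5p was 3.02, 3.22 and 2.98 in EVsoft and 3.27, 3.25 and 3.30 in EVstiff, and the means were 0.20 apart without overlap (p = 0.1 by exact permutation). The ratios of let-7a-5p to let-7f-5p and of let-7f-5p to let-7d-5p overlapped between the groups and differed by 0.18 and 0.01. On chromosome 22, let-7a-5p to let-7b-5p stood at -1.44 ± 0.26 in EVsoft and -1.51 ± 0.20 in EVstiff (SD, n = 3), and on the X chromosome let-7f-5p to miR-98-5p at 4.56 ± 0.12 and 4.80 ± 0.56. The difference of 0.24 for let-7f-5p to miR-98-5p was 0.53 without EVstiff replicate 3 and -0.02 without EVstiff replicate 2, so single libraries decided it.

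In the cluster of let-7e on chromosome 19, the ratio to miR-125a-5p was apart between the groups and that to miR-99b-5p overlapped. Of the 10 pairs, 2 were apart, and how often pairs of other miRNAs are apart was not tested. Levels of single miRNAs did not overlap for 47.6% of the 105 miRNAs. The log2 ratio of let-7e-5p to miR-125a-5p was -0.99, -2.08 and -1.52 in EVsoft and 0.38, 0.47 and -0.41 in EVstiff. The groups did not overlap, and the mean was higher by 1.68 in EVstiff (p = 0.1 by exact permutation). Of the neighbours, miR-125a-5p, a relative of the worm miRNA lin-4, had fewer reads in every EVstiff library (36, 36 and 40) than in any EVsoft library (96, 196 and 208), and its log2 fold change was -1.35 (SE 0.30, edgeR adjusted p = 0.00849). The third miRNA of the cluster, miR-99b-5p, had a log2 fold change of -0.29 (95% interval -0.84 to 0.26), and the ratio of let-7e-5p to it was -0.35 ± 0.22 in EVsoft and 0.35 ± 0.55 in EVstiff. For miR-125a-3p, the other arm of the miR-125a hairpin, the log2 fold change was 0.40 (95% interval -0.22 to 1.03, edgeR adjusted p = 0.314), and the difference between its arms was not tested.

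The partners of let-7c-5p and let-7a-2 were low. Reads of miR-99a-5p, next to let-7c, numbered 26, 29 and 72 in EVsoft and 15, 47 and 23 in EVstiff, and its log2 fold change was 0.32 (95% interval -0.63 to 1.28). The log2 ratio of let-7c-5p to miR-99a-5p was 2.67 ± 0.68 in EVsoft and 3.15 ± 0.77 in EVstiff, and the interval of miR-99a-5p holds both no change and the value of let-7c-5p. With at most 6 reads per library, miR-125b-5p did not pass the filter, and its ratio to let-7c-5p rests on counts at the limit of detection. It comes from more than 1 hairpin, and that of miR-125b-1 lies on chromosome 11, 46677 bases from let-7a-2. Its reads therefore cannot be assigned to the cluster of let-7c. For miR-100-5p, next to let-7a-2, the log2 fold change was 0.55 (95% interval -0.03 to 1.12, adjusted p = 0.139). Of the 5 miRNAs that share a cluster with a let-7 hairpin, 4 were tested, and 1 was lower and 0 higher by the adjusted p of edgeR. Over all 105 miRNAs tested, 23.8% were called in either direction, so this count is not a result about the neighbours.

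**Figure D5:**
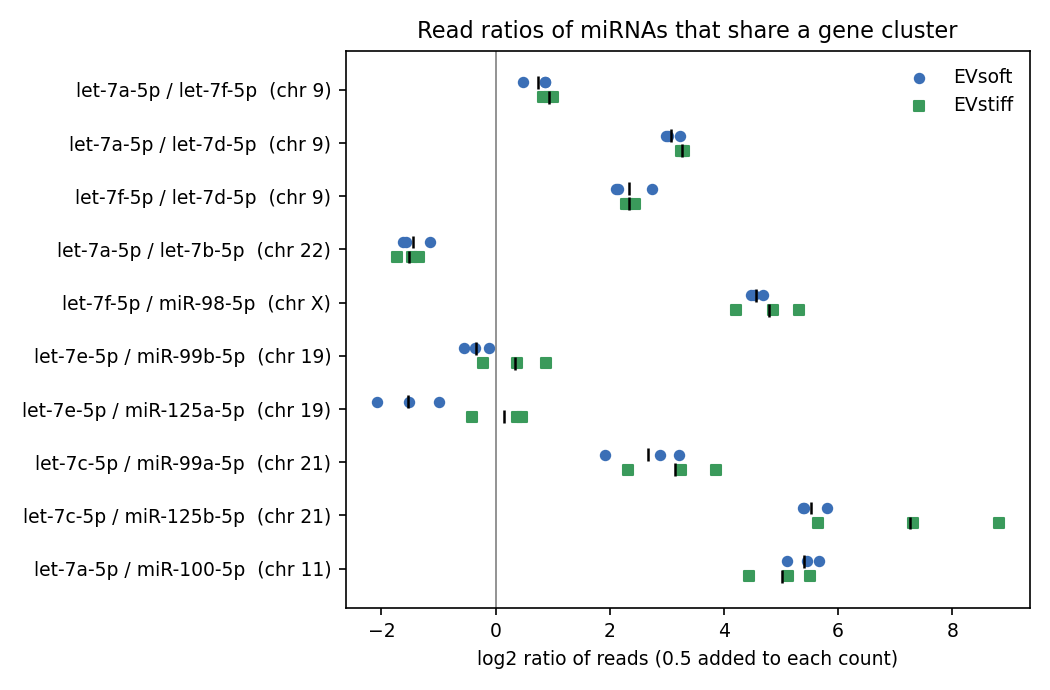
Each row gives the log2 ratio of the reads of 2 miRNAs that share a gene cluster (x axis), with circles for EVsoft libraries, squares for EVstiff libraries and a bar at each group mean (n = 3). Groups are apart for let-7e-5p to miR-125a-5p and, by a small distance, for let-7a-5p to let-7d-5p.

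The other arms of the hairpins were rare, with 1 exception. The table holds 5 such names, and 4 of them had fewer than 10 reads in every library. The exception was let-7d-3p, which comes from the 3′ side of the let-7d hairpin, here with both arms in capitals.
let-7d hairpin: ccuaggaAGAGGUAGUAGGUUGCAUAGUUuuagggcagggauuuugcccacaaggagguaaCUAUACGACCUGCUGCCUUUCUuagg
It had 55, 119 and 88 reads in EVsoft and 76, 82 and 46 in EVstiff. It thus made up 17.4%, 33.0% and 20.1% of the reads of both arms in EVsoft and 33.2%, 36.9% and 21.5% in EVstiff. The groups overlapped, and the log2 ratio of let-7d-3p to let-7d-5p was -1.75 ± 0.64 in EVsoft and -1.21 ± 0.57 in EVstiff (SD, n = 3, exact permutation p = 0.2). The log2 fold change of let-7d-3p was 0.40 (95% interval -0.38 to 1.19, edgeR adjusted p = 0.413). The sum of all other arms was 0.538 to 1.14% of the 5p reads of the family.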

How the data were processed

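Small RNA of EVs was sequenced in 3 EVsoft and 3 EVstiff libraries, grouped and numbered by their labels. Raw read counts per miRNA were deposited by the authors, after quality control in exceRpt and with RefSeq features, with hg38 as the build in the submitters' notes. The aligner is not given in the sources used here, and nothing is said of duplicate reads. The TPM values that the paper describes were not used.

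The whole table was fitted with edgeR 4.0.16 in R 4.3.3 (filterByExpr, TMM, glmQLFit and glmQLFTest, Benjamini-Hochberg adjustment, no replicate block) and DESeq2 1.42.0 as an alternative. The paper gives a general test for its comparisons of 2 groups and a q-value limit for miRNAs, but no tool for the miRNA table. The standard error is the size of the log2 fold change over the square root of F. The p-values of edgeR set the difference against the spread between 3 libraries per group, an estimate shared in part over all miRNAs tested. A count of 0 allows up to 3 counts, or 44.8 to 108 CPM. No 2 libraries agreed within sampling noise. Single values were compared by exact permutation in scipy 1.17.1. The fit was tested on simulated counts with the same dispersion for every miRNA, which does not test the spread seen in these libraries. Hairpin positions came from RefSeq and host genes from GENCODE 44, both on GRCh38, and all 12 hairpin positions were the same in both.

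The members, lists and tests were chosen with earlier results of these data known. The miRNAs named are the members, their cluster neighbours and other arms, the marker lists, and the 3 miRNAs whose TMM log2 CPM (prior count 2) correlated best with that of the family sum. Alternatives were other scalings, filters and tests, merged members, a replicate block, and fits without each library in turn.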

Additional observations from a re-analysis of the deposited data

How the results depend on the processing

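The number of members called was 2, and the same 2 members (let-7c-5p and let-7i-5p) were called with DESeq2, RLE, upper quartile factors, the family sum as library size, no filter, at least 10 counts in every library, let-7b-5p left out and a replicate block. It was 1 with library size only, 6 with the same library size, and 1 when a log2 fold change above 0.58 was also required. Over all 105 miRNAs, 25 were called, 27 with library size only, 57 with the same library size and 19 (18.1%) with the fold limit as well. The settings that called the same 2 members called from 17 of 464 miRNAs (no filter) to 31 of 87 (at least 10 counts in every library). The fits that each left out 1 library called from 19 to 30 miRNAs, of 104 to 117 tested. Leaving out single libraries gave from 1 to 2 members, with 1 without EVstiff replicate 2 (let-7c-5p) and 1 without EVstiff replicate 3 (let-7i-5p), and with let-7g-5p in place of let-7c-5p without EVsoft replicate 3 and let-7b-5p in its place without EVstiff replicate 1. The log2 ratio of the family's share, 0.005, was -0.11 without the most abundant miRNA, let-7b-5p, and -0.05 to 0.06 with a library left out. With the same library size, 4 members changed sign, let-7a-5p to -0.68, let-7b-5p to -0.63, let-7c-5p to -0.11 and let-7e-5p to -0.39. With single libraries left out, log2 fold changes ran from -0.144 to 0.000297 for let-7d-5p, -0.25 to 0.19 for let-7f-5p and -0.63 to 0.077 for miR-98-5p, and the share of let-7f-5p within the family, EVstiff minus EVsoft, from -2.06 to 0.512 percentage points. None of these log2 fold changes was called. With let-7b-5p left out of the family sum, the shares of let-7i-5p (-6.33 percentage points, exact permutation p = 0.3) and let-7d-5p (-0.063, p = 0.8) overlapped and that of let-7a-5p (4.88, p = 0.1) did not. Differences in log2 ratio ran from -0.097 to 0.214 for let-7f-5p to let-7d-5p (-0.00201 with a pseudocount of 5), -0.16 to 0.0795 for let-7a-5p to let-7b-5p and -0.0241 to 0.53 for let-7f-5p to miR-98-5p. With the replicate block no member's call changed. Same-numbered libraries did not deviate together (correlations of deviations from the group means -0.13, 0.13 and -0.03), so the numbers were not taken as pairs. The cause of these changes was not tested.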

Other observations

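Outside the family, the 3 miRNAs whose log2 CPM followed the summed let-7 level most closely over the 6 libraries, among 96 compared, were miR-28-3p (Pearson r = 0.85), miR-484 (r = 0.84) and miR-182-5p (r = 0.83). The 6 points share library depth and TMM factors, and the values are descriptions. The level of miR-28-3p was 1230, 1479 and 1030 CPM in EVsoft and 966, 1581 and 1442 CPM in EVstiff. That of miR-484 was 461, 419 and 269 CPM in EVsoft and 200, 503 and 505 CPM in EVstiff, on few reads.

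The number of G and C bases in the mature member ranged from 7 to 10. Across the 9 members, which are not independent, it had a Pearson r of 0.41 and a Spearman rho of 0.46 with the log2 fold change.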
